A study of Mus with 15 samples.

Results

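Respiratory complex I, the NADH dehydrogenase of the mitochondrial inner membrane, was followed through 47 protein-coding genes whose symbols start with Nduf, out of 21933 protein-coding genes and 55471 genes in the deposited matrix. They comprised 37 genes of subunits, 8 genes of assembly factors (Ndufaf) and the related genes Ndufa4 and Ndufa4l2, which were kept apart because Ndufa4 is now placed in complex IV. All 47 passed the filter on low counts and were tested among 16051 genes, so no member was lost. RNA sequencing covered 3 groups of 5 samples, namely fat grafts at day 7, fat grafts at day 3 and control adipose tissue. Every sample came from wild-type mice of strain C57BL/6 with an age label of 7 weeks. No label names a donor site or a graft site, the cells a recipient contributed, or a procedure done on the control mice. Nor do they say whether the 5 samples of a group came from separate animals. The p-values thus set group differences against the spread between these samples, and may not extend to other animals. The series concerns the metabolism of fat that survives grafting.

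Complex I takes electrons from NADH, passes them along iron-sulfur clusters to ubiquinone and pumps protons. Its matrix arm holds the NADH site and the iron-sulfur clusters, and its membrane arm holds the proton channels. The core subunits of the membrane arm are encoded by the mitochondrial genome, and all other subunits are encoded in the nucleus. Assembly factors help to build the complex and are not part of the finished enzyme. White fat cells use the respiratory chain in fatty acid turnover, and brown fat cells hold it in abundance.

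Libraries held 20.2 to 32 M estimated counts in day 7 grafts, 23.7 to 29.4 M in day 3 grafts and 17.1 to 31.8 M in controls. The 47 genes took 0.164 to 0.188% of these counts in day 7 grafts, 0.174 to 0.21% in day 3 grafts and 0.332 to 0.475% in controls. Levels are given as CPM, each count relative to the scaled size of its library. The 10 adipocyte markers summed to 1860 to 3640 CPM in day 7 grafts, 3300 to 8270 CPM in day 3 grafts and 18300 to 55700 CPM in controls, so they were present in every group. Macrophage markers ran the other way, with sums of 9700 to 14100 CPM in day 7 grafts, 5370 to 12200 CPM in day 3 grafts and 1440 to 4000 CPM in controls. All 10 adipocyte markers were called lower and all 10 macrophage markers higher in both kinds of graft, and their part in the results below was not tested. In such bulk tissue, fewer cells of a type and less RNA per cell cannot be told apart. The 10 skeletal muscle markers summed to 3.46 to 330 CPM in day 7 grafts, 5.91 to 349 CPM in day 3 grafts and 56.9 to 403 CPM in controls other than control 2, which had 3910 CPM. Among the controls, control 4 had the highest adipocyte sum and the lowest scaling factor (0.746).

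Nuclear genes of complex I subunits were low in both grafts. In day 7 grafts all 37 were called lower than in controls, with a median log2 change of -1.12 and a range of -1.88 to -0.49. In day 3 grafts 36 of 37 were called lower, with a median of -1.01 and a range of -1.89 to -0.33. None was called higher. With Ndufa4, Ndufa4l2 and the assembly factors included, 44 of 47 members were called lower and 1 higher at day 7, and 42 lower and 1 higher at day 3. A call means an adjusted p under 0.05 in limma-voom with Benjamini-Hochberg adjustment over all 16051 genes, and by that rule 28.4% of all genes were lower at day 7 and 30.3% at day 3. Calls in either direction reached 60.7% of all genes at day 7 and 60.4% at day 3. The estimate was below 0 for 46 of 47 members at both days, against 48.7% of all genes at day 7 and 50.6% at day 3. The median over all genes tested was 0.03 at day 7 and -0.02 at day 3.

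Separation of samples followed the calls. At day 7, 34 of 37 subunit genes lay lower in every graft than in every control, against 19.8% of all genes. At day 3, 29 of 37 did so, against 19.9% of all genes. As a share of the mean control CPM, 8 subunits were under 35% at day 7, 19 were at 35 to 50%, 9 at 50 to 65% and 1 above 65%. The same bins at day 3 held 6, 13, 14 and 4 subunits.

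**Figure D1:**
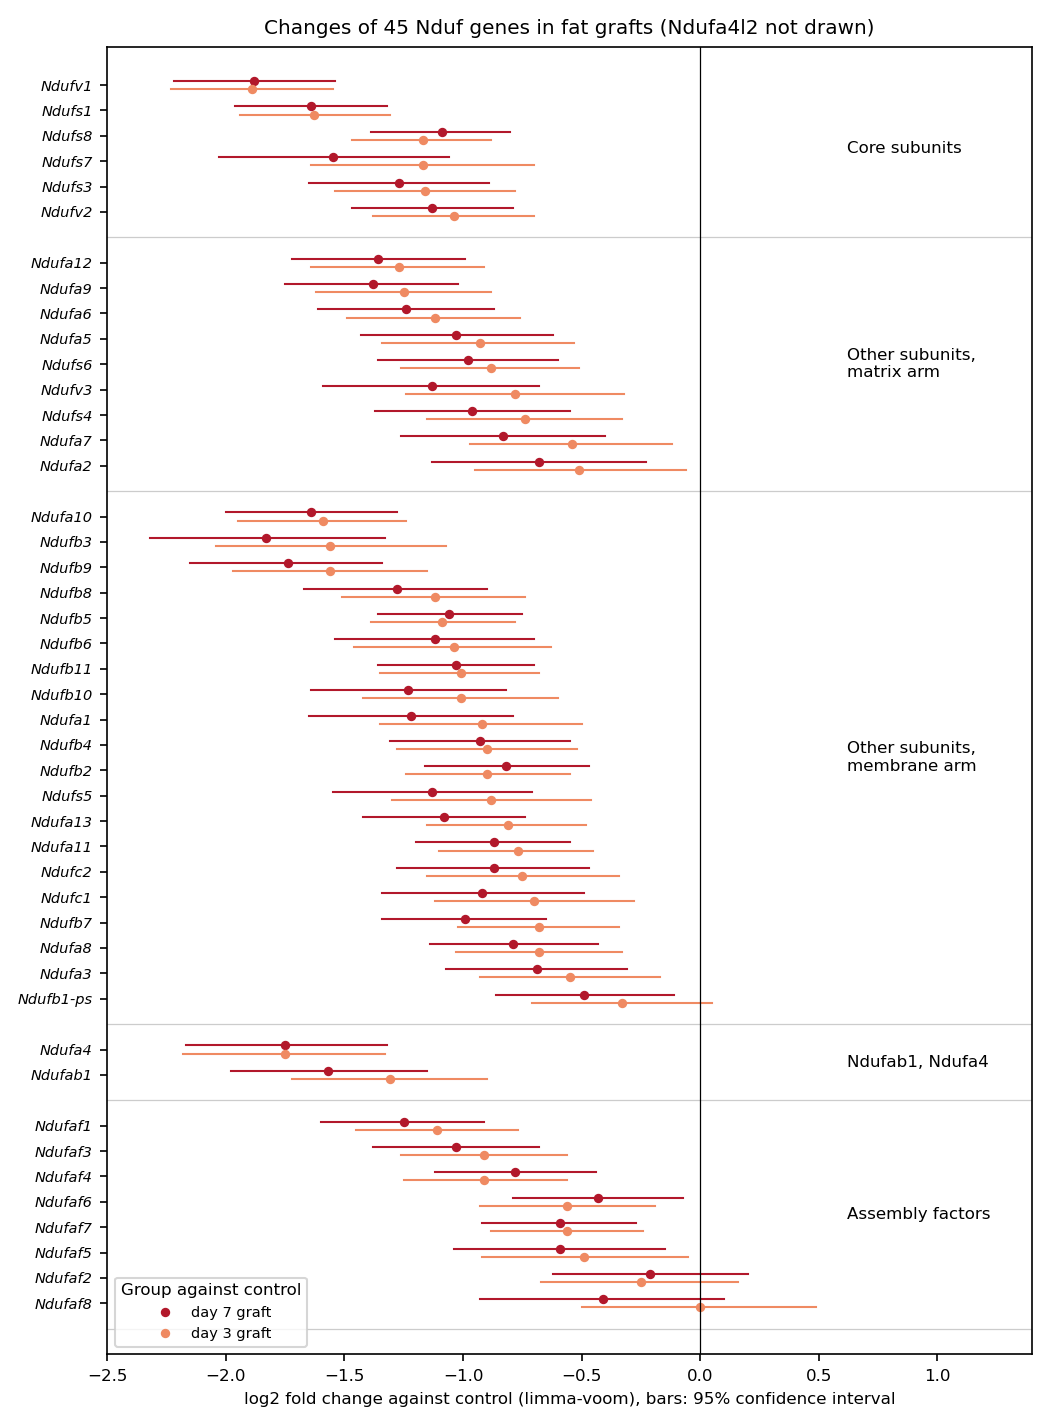
Log2 fold change against control (horizontal axis) of 45 Nduf genes, by role, for day 7 grafts (dark red, upper point of each pair) and day 3 grafts (orange), with 95% confidence intervals; Ndufa4l2 is not drawn. All subunit points lie left of 0, from -1.89 for Ndufv1 to -0.33 for Ndufb1-ps, and the assembly factors lie between -1.25 and 0.

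The deepest drop was in Ndufv1, which carries the flavin that accepts electrons from NADH (ENSMUSG00000037916, mm10 chromosome 19, 4007384 to 4012806, minus strand). Its level in the 5 day 7 grafts was 43.5, 51.6, 52.6, 48.9 and 47.0 CPM, in the 5 day 3 grafts 44.9, 47.5, 52.4, 47.1 and 51.0 CPM, and in the 5 controls 228, 186, 129, 254 and 134 CPM. Every graft was below every control, and the grafts of both days covered the same narrow range. Relative to controls, Ndufv1 fell by 1.88 ± 0.16 on the log2 scale (SE) at day 7 and by 1.89 ± 0.16 at day 3 (limma adjusted p = 3.73e-07 and 4.69e-07).

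Ndufs1, the large iron-sulfur subunit next to the NADH site (mm10 chromosome 1, 63143596 to 63176833, minus strand), had 85.4, 81.2, 81.1, 78.3 and 76.3 CPM in day 7 grafts. Its values in day 3 grafts were 86.4, 80.9, 83.9, 76.6 and 78.1 CPM, and in controls 315, 265, 173, 342 and 199 CPM. The lowest control thus stood far above the highest graft. Ndufs1 changed by -1.64 ± 0.15 at day 7 and -1.63 ± 0.15 at day 3 (limma adjusted p = 6.53e-07 and 8.27e-07).

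Both genes belong to the 7 nuclear core subunits, whose median log2 change was -1.55 at day 7 and -1.17 at day 3. All 7 were called lower at both days without overlap of samples. Lower without overlap were 19.8% of all genes at day 7 and 19.9% at day 3. Ndufs7, a subunit of the ubiquinone site, changed by -1.55 ± 0.23 at day 7 and -1.17 ± 0.22 at day 3. Ndufs3 changed by -1.27 and -1.16 in the same order of days, and Ndufv2, an iron-sulfur subunit beside Ndufv1, by -1.13 and -1.04. Ndufs8, which carries iron-sulfur clusters close to the ubiquinone site, changed by -1.09 ± 0.14 at day 7 and -1.17 ± 0.14 at day 3.

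The 30 accessory subunits, which surround the core, had a median of -1.04 at day 7 and -0.90 at day 3, and 30 and 29 of them were called lower. By position, the 16 genes of the matrix arm were all called lower at both days, with medians of -1.19 at day 7 and -1.14 at day 3. Of the 20 genes of the membrane arm, 20 were called lower at day 7 and 19 at day 3, with medians of -1.04 and -0.90. No test compared the arms or the core with the accessory subunits, because the lists were drawn up with earlier results of these data in view.

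Ndufb3 and Ndufb9, accessory subunits far out in the membrane arm, followed Ndufv1 at day 7. Ndufb3 had 35.7, 34.7, 31.3, 31.0 and 36.2 CPM in day 7 grafts, 36.3, 44.6, 47.0, 35.3 and 41.8 CPM in day 3 grafts, and 125, 121, 76.4, 247 and 86.9 CPM in controls. Control 4 stood far above the other controls, and no graft reached the lowest control. The log2 change of Ndufb3 was -1.83 ± 0.23 at day 7 and -1.56 ± 0.23 at day 3 (limma adjusted p = 1.12e-05 and 4.73e-05).

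Ndufb9 had 55.9, 53.4, 55.8, 44.9 and 63.3 CPM in day 7 grafts, 56.8, 61.8, 71.6, 61.9 and 57.4 CPM in day 3 grafts, and 211, 192, 120, 300 and 137 CPM in controls. Again the groups did not overlap. Ndufb9 changed by -1.74 ± 0.19 at day 7 and -1.56 ± 0.19 at day 3 (limma adjusted p = 3.14e-06 and 9.41e-06). Ndufa10, a membrane arm subunit with the fold of a nucleoside kinase, was close to these with -1.64 ± 0.17 at day 7 and -1.59 ± 0.17 at day 3.

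Ndufab1, the mitochondrial acyl carrier protein, sits in both arms and also serves fatty acid synthesis in mitochondria. It measured 38.3, 34.4, 31.9, 28.3 and 40.5 CPM in day 7 grafts, 39.5, 46.3, 41.3, 34.4 and 45.5 CPM in day 3 grafts, and 116, 106, 69.5, 166 and 77.9 CPM in controls. Each graft was below each control. The log2 change of Ndufab1 was -1.57 ± 0.19 at day 7 and -1.31 ± 0.19 at day 3 (limma adjusted p = 9.35e-06 and 4.71e-05).

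Ndufs4, an accessory subunit near the NADH site whose loss in mice models Leigh syndrome, had 65.4, 66.2, 56.1, 48.4 and 70.2 CPM in day 7 grafts, 63.6, 66.8, 80.4, 70.7 and 73.7 CPM in day 3 grafts, and 129, 128, 80.2, 194 and 90.6 CPM in controls. At day 7 the groups were apart, and at day 3 the highest graft just passed the lowest control. Ndufs4 changed by -0.96 ± 0.19 at day 7 and -0.74 ± 0.19 at day 3 (limma adjusted p = 0.000546 and 0.00393).

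At the mild end stood 4 accessory subunits. Ndufa3, of the membrane arm, had 36.9, 35.8, 35.9, 29.0 and 44.5 CPM in day 7 grafts, 31.7, 45.1, 44.2, 39.6 and 40.1 CPM in day 3 grafts, and 65.4, 56.9, 45.4, 89.7 and 44.7 CPM in controls. It was called lower at both days (log2 change -0.69 ± 0.18 and -0.55 ± 0.18, limma adjusted p = 0.00372 and 0.0145). Only at day 7 were its groups apart, and there by a small gap. The day 3 call of Ndufa3 was lost without control 2 and day 3 graft 1 together (-0.48, limma adjusted p = 0.0612).

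Ndufa7, of the matrix arm, had 27.8, 31.5, 29.8, 28.3 and 38.8 CPM in day 7 grafts, 29.0, 38.3, 42.3, 41.2 and 39.8 CPM in day 3 grafts, and 57.8, 56.8, 45.4, 93.4 and 36.5 CPM in controls. Control 5, which had the highest macrophage score of the controls (mean log2(CPM + 1) of 7.65), lay inside the range of the grafts. Its log2 change was -0.83 ± 0.20 at day 7 and -0.54 ± 0.20 at day 3 (limma adjusted p = 0.00258 and 0.029). The day 3 call was lost without control 1, control 2, control 4 or day 3 graft 1 (limma adjusted p = 0.053 to 0.0824), and without control 4 the change was -0.33.

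Ndufa2, a matrix arm subunit with a thioredoxin-like fold, had 30.7, 38.2, 33.4, 33.9 and 48.8 CPM in day 7 grafts, 29.3, 46.2, 45.3, 42.6 and 46 CPM in day 3 grafts, and 61.8, 59.8, 47.9, 97.6 and 40.3 CPM in controls. The groups overlapped at both days, at control 5 and, at day 7, also at control 3. Its log2 change was -0.68 ± 0.21 at day 7 and -0.51 ± 0.21 at day 3 (limma adjusted p = 0.0114 and 0.0484). The day 3 call stood at the threshold: leaving out any of 12 of the 15 samples, one at a time (controls 1, 2 and 4, all 5 day 3 grafts and day 7 grafts 1 to 4), gave limma adjusted p of 0.0557 to 0.143, with -0.30 without control 4.

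Ndufb1-ps, listed as protein-coding despite the ending of its symbol, had 53.6, 40.1, 41.4, 33.2 and 53.2 CPM in day 7 grafts, 46.7, 48.2, 57.2, 42.8 and 49.0 CPM in day 3 grafts, and 61.4, 62.6, 44.3, 92.9 and 53.9 CPM in controls. Control 3 was as low as the grafts. The log2 change of Ndufb1-ps was -0.49 ± 0.18 at day 7 (limma adjusted p = 0.028) and -0.33 ± 0.18 at day 3 (0.118, 95% interval -0.71 to 0.05). The day 7 call was lost without control 2, control 4 or day 7 graft 2, 3 or 4 (limma adjusted p = 0.051 to 0.084, -0.32 without control 4). Without control 3 the gene was called at day 3 too (-0.45, limma adjusted p = 0.036).

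**Figure D2:**
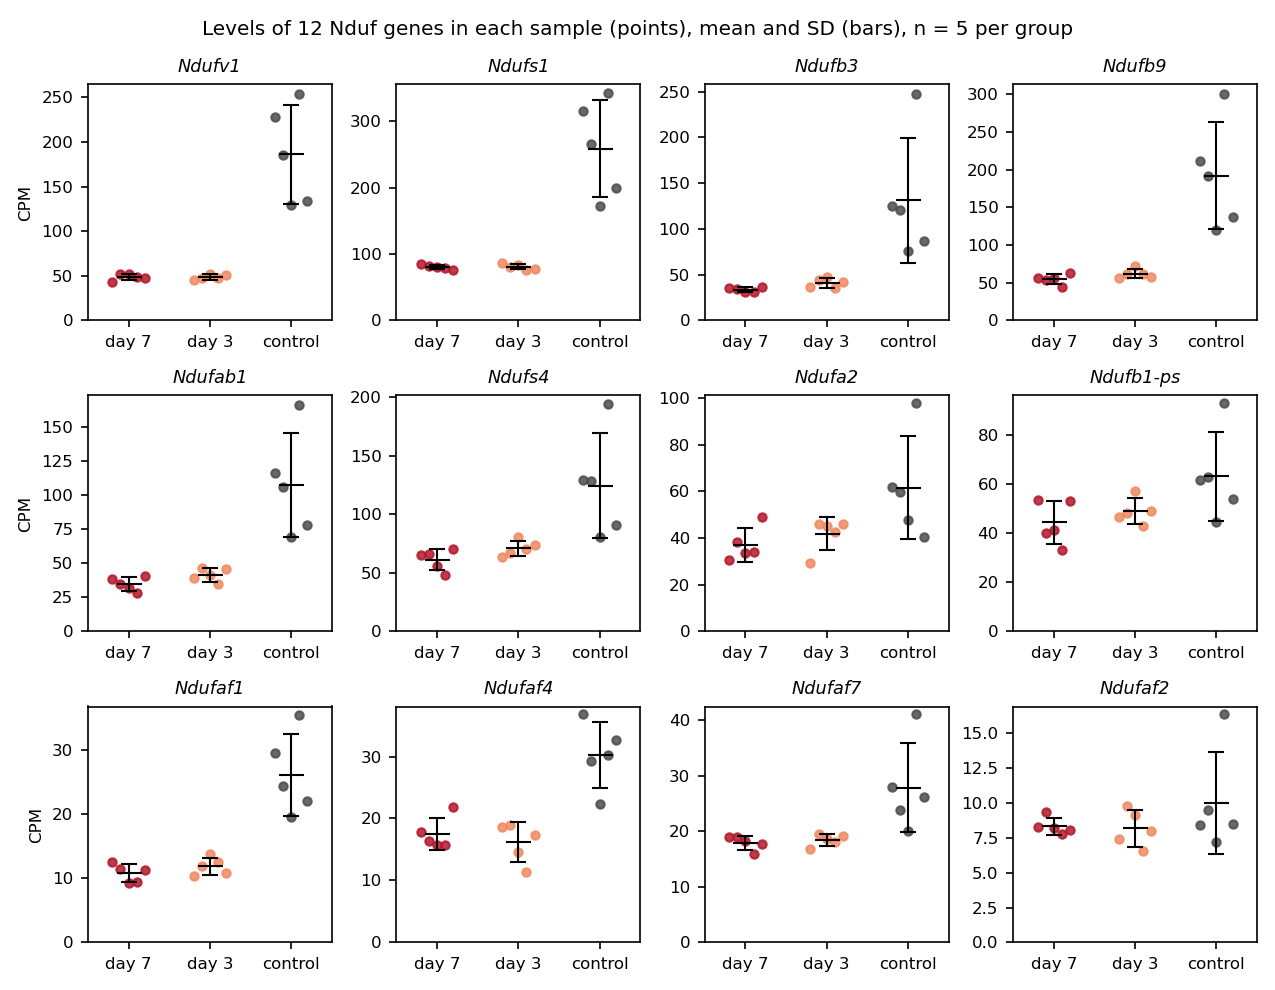
Level in CPM (vertical axes, from 0) of 12 Nduf genes in each of 5 samples per group, with day 7 grafts, day 3 grafts and controls from left to right; bars give the mean and SD. The grafts form tight clusters below all controls for Ndufv1, Ndufs1, Ndufb3, Ndufb9 and Ndufab1, whereas for Ndufa2, Ndufb1-ps and Ndufaf2 the groups overlap.

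The 8 assembly factors had smaller median changes than the subunits, a difference that was not tested. At day 7, 6 of 8 were called lower, with a median log2 change of -0.59, and at day 3, 5 of 8, with a median of -0.56. None was called higher. In 4 of 8 at day 7 and 5 of 8 at day 3 every graft was below every control. Over all genes, 28.4% were called lower at day 7 and 30.3% at day 3, and 19.8% and 19.9% were lower without overlap. On the deposited TPM scale, which allows for transcript length, the assembly factors had mean levels of 7.64 to 27.4 TPM in controls. Subunits had 86.8 to 492 TPM, so none of the 8 reached the lowest subunit. The smaller median was that of the Ndufaf genes. The 9 measured assembly factors with other names, given further below, had medians of -0.87 at day 7 and -0.96 at day 3.

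Ndufaf1, which works with Ecsit in building the membrane arm, fell the most. It had 12.5, 11.5, 9.31, 9.41 and 11.3 CPM in day 7 grafts, 10.4, 11.9, 13.8, 12.5 and 10.9 CPM in day 3 grafts, and 29.5, 24.4, 19.5, 35.5 and 22.0 CPM in controls. No graft reached a control. Its log2 change of -1.25 ± 0.16 at day 7 and -1.11 ± 0.16 at day 3 (limma adjusted p = 1.40e-05 and 4.05e-05) lay near the subunit medians.

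Ndufaf3 and Ndufaf4, which act together on the ubiquinone-binding part of the matrix arm, followed. Ndufaf3 had 6.25, 7.21, 5.61, 6.43 and 7.23 CPM in day 7 grafts, 6.29, 6.98, 6.67, 7.75 and 7.66 CPM in day 3 grafts, and 13.6, 12.8, 11.4, 19.6 and 10.3 CPM in controls (log2 change -1.03 ± 0.17 and -0.91 ± 0.16, limma adjusted p = 9.46e-05 and 0.00027). Ndufaf4 had 17.8, 16.3, 15.7, 15.8 and 21.9 CPM in day 7 grafts, 18.7, 18.9, 14.6, 11.3 and 17.4 CPM in day 3 grafts, and 36.8, 29.2, 22.4, 30.2 and 32.6 CPM in controls (-0.78 ± 0.16 and -0.91 ± 0.16, limma adjusted p = 0.000706 and 0.00025). Grafts and controls were apart for both genes, by less than 1 CPM for Ndufaf4 at day 7.

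Ndufaf7, an arginine methyltransferase that acts on complex I, had 18.9, 19.0, 18.3, 15.9 and 17.8 CPM in day 7 grafts, 16.8, 19.5, 18.7, 18.1 and 19.2 CPM in day 3 grafts, and 28.0, 23.9, 20.1, 41.2 and 26.2 CPM in controls. Its groups were just apart, and it was called lower at both days (-0.59 ± 0.15 and -0.56 ± 0.15, limma adjusted p = 0.00348 and 0.00523). Ndufaf5, which in human cells hydroxylates an arginine of the NDUFS7 protein, had 7.49, 7.74, 6.27, 6.14 and 8.92 CPM in day 7 grafts, 8.01, 8.65, 9.08, 5.76 and 8.19 CPM in day 3 grafts, and 12, 10.5, 7.83, 17.4 and 9.01 CPM in controls. The groups overlapped, and its change of -0.59 ± 0.21 was called at day 7 (limma adjusted p = 0.0216) while -0.49 ± 0.21 at day 3 was not (0.0522). Either verdict on Ndufaf5 turned on single samples: the day 7 call was lost without control 4, day 7 graft 3 or day 7 graft 4 (limma adjusted p = 0.0501 to 0.0598), and a day 3 call appeared without control 3 or control 5 (0.0175 to 0.039). The day 3 call of Ndufaf5 also appeared with 3 other ways of scaling, a stricter filter, sample quality weights or the mitochondrial genes left out (limma adjusted p = 0.012 to 0.0488).

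Ndufaf6, needed early in assembly, averaged 3.17 ± 0.32 CPM in day 7 grafts, 2.90 ± 0.147 CPM in day 3 grafts and 4.35 ± 1.04 CPM in controls (SD, n = 5 each). It was called at both days (-0.43 ± 0.17 and -0.56 ± 0.17, limma adjusted p = 0.04 and 0.0123). Its day 7 call was lost when any of 9 samples was left out (controls 1, 2 and 4, day 3 grafts 1, 3 and 5 and day 7 grafts 2, 3 and 4, limma adjusted p = 0.0525 to 0.11). Ndufaf2, a relative of the subunit Ndufa12 that takes its place during assembly, averaged 8.32 ± 0.587, 8.18 ± 1.32 and 9.99 ± 3.67 CPM in day 7 grafts, day 3 grafts and controls. Its log2 change was -0.21 ± 0.19 at day 7 and -0.25 ± 0.20 at day 3, with 95% intervals of -0.62 to 0.20 and -0.67 to 0.16. Ndufaf8, the partner of Ndufaf5, had only 28 to 60 counts per library in day 7 grafts, 50 to 68 in day 3 grafts and 33 to 72 in controls, and its intervals were -0.93 to 0.10 at day 7 and -0.50 to 0.49 at day 3. With sample quality weights Ndufaf8 was called lower at day 7 (-0.69, limma adjusted p = 0.00803). Without those weights a change of the size seen in the median subunit lies outside the intervals of Ndufaf2 and Ndufaf8. The interval of Ndufaf2 does not allow for misplaced reads of Smim15, which overlaps it on the opposite strand.

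The levels of subunits and assembly factors were also set against each other within each sample. The mean log2(CPM + 1) of the 37 subunits minus that of the 8 assembly factors was 2.13, 2.12, 2.24, 2.16 and 2.24 in day 7 grafts, 2.18, 2.21, 2.36, 2.35 and 2.22 in day 3 grafts, and 2.75, 2.81, 2.64, 2.90 and 2.52 in controls. Every graft was below every control. This difference averaged 2.18 ± 0.0585 in day 7 grafts, 2.26 ± 0.0844 in day 3 grafts and 2.72 ± 0.148 in controls (SD, n = 5 each). It is a description without a test, and the pseudocount weighs more on low genes.

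The size of these changes depended on scaling. On the deposited TPM scale the median log2(TPM + 1) change of all genes tested was 0.33 at day 7 and 0.22 at day 3, and 74.1% and 68.0% of calls were higher, against 53.1% and 49.9% on the CPM scale of the fit. Subunit medians on that scale were -0.72 at day 7 and -0.72 at day 3, or -1.05 and -0.94 relative to all genes, against -1.15 and -1 relative to all genes on the CPM scale. All 37 subunits stayed negative there at both days, with 35 and 34 called lower. Of the assembly factors, only Ndufaf1 (-0.81 at both days) was still called at day 7, and Ndufaf1 and Ndufaf4 (-0.60) at day 3. Ndufaf2 turned positive (0.18 and 0.02), as did Ndufaf8 at day 3 (0.04, and 0.03 with library totals as the scale), with no call.

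Ndufa4l2 rose in both grafts and was the only member called higher, by a rule that 32.2% of all genes met at day 7 and 30.1% at day 3. It encodes a mitochondrial protein related to Ndufa4 and is known as a target of the hypoxia factor HIF-1 (ENSMUSG00000040280, mm10 chromosome 10, 127514967 to 127517154, plus strand). It had 33.0, 22.9, 47.5, 53.7 and 77.7 CPM in day 7 grafts, 56.7, 101, 69.8, 144 and 77.0 CPM in day 3 grafts, and 1.73, 1.86, 1.77, 2.91 and 1.47 CPM in controls. The lowest graft was well above the highest control, a separation that 22.7% of all genes had at day 7 and 20.6% at day 3. The highest control was control 4, whose library held 69 counts of the gene. The log2 change was 4.48 ± 0.53 at day 7 and 5.45 ± 0.53 at day 3 (limma adjusted p = 6.42e-06 and 1.38e-06). Its span overlaps Shmt2 on the opposite strand. Libraries were stranded, but whether counting used the strand is not stated, so reads of Shmt2 (46.8 CPM on average in day 3 grafts and 34.5 CPM in controls) cannot be fully told apart from it.

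Ndufa4, its relative in the respiratory chain, went the opposite way. It had 81.5, 87.4, 74.5, 62.4 and 76.5 CPM in day 7 grafts, 71.3, 69.8, 91.3, 67.2 and 81.4 CPM in day 3 grafts, and 276, 246, 166, 455 and 213 CPM in controls. No graft came near a control. The log2 change of Ndufa4 was -1.75 ± 0.20 at each day (limma adjusted p = 4.55e-06 at day 7 and 4.93e-06 at day 3), steeper than all subunits but Ndufv1 and Ndufb3 at day 7, and than all but Ndufv1 at day 3.

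Put on the per-length TPM scale, the pair changed its balance. Ndufa4l2 made up 20.6, 14.4, 28.0, 36.9 and 39.1% of their summed TPM in day 7 grafts, 33.4, 50.7, 34.2, 56.7 and 37.9% in day 3 grafts, and 0.294, 0.418, 0.629, 0.432 and 0.327% in controls. In day 3 grafts 2 and 4 Ndufa4l2 thus exceeded Ndufa4, with 296 and 348 TPM of Ndufa4l2 beside 287 and 266 TPM of Ndufa4. In a like pair of complex IV, Cox4i2, the isoform tied to low oxygen, made up 1.47 ± 0.743% of the TPM of Cox4i1 and Cox4i2 in day 7 grafts, 1.91 ± 0.908% in day 3 grafts and 0.182 ± 0.0612% in controls (SD, n = 5 each).

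**Figure D3:**
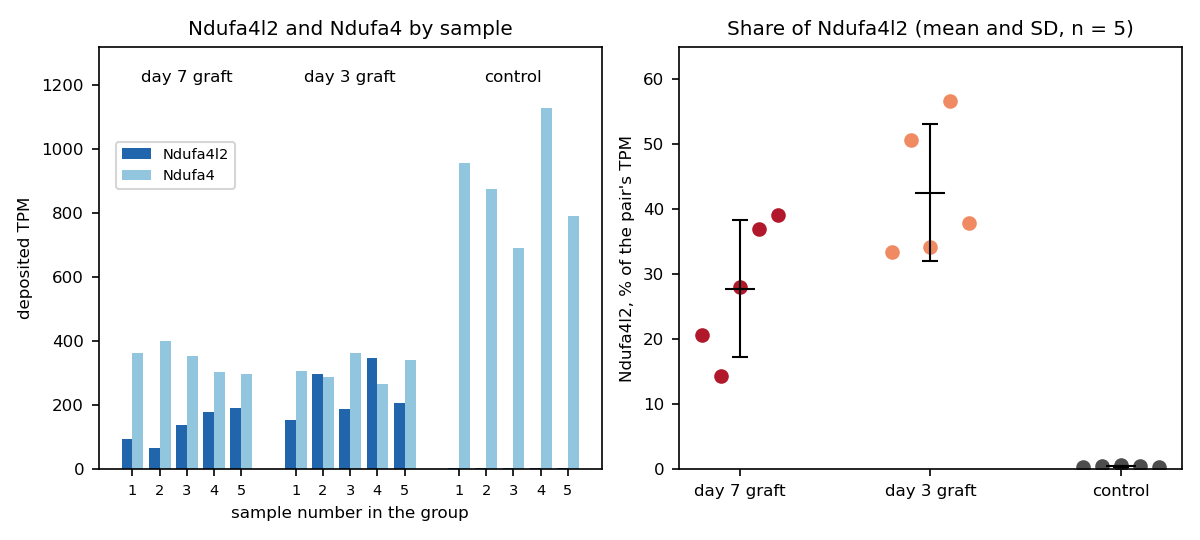
Left, deposited TPM of Ndufa4l2 (dark blue) and Ndufa4 (light blue) in each sample; right, Ndufa4l2 as a percentage of the summed TPM of both genes, with mean and SD, n = 5 per group. Shares are 14.4 to 39.1% in day 7 grafts, 33.4 to 56.7% in day 3 grafts and 0.294 to 0.629% in controls.

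Other hypoxia-responsive genes were mostly called higher too, by a rule that 32.2% of all genes met at day 7 and 30.1% at day 3. Of the 9 measured, 6 were called higher and 1 lower at day 7 (median log2 change 2.12), and 7 higher at day 3 (3.19). Egln3, an oxygen sensor induced by HIF, was at the top with 2.92 ± 0.68 and 4.15 ± 0.69, and Vegfa at the bottom with -1.29 ± 0.42 at day 7 (limma adjusted p = 0.0165) and -0.27 ± 0.44 at day 3. In the samples themselves, day 3 graft 4 had the highest share of Ndufa4l2 and the highest hypoxia score of its group (mean log2(CPM + 1) of 7.31), and day 7 graft 5 likewise (7.21). The lowest of each group matched too, day 7 graft 2 at 4.67 and day 3 graft 1 at 6.14. Controls scored 4.38 to 4.87, so day 7 graft 2 lay inside their range, although its Ndufa4l2 level was above that of every control. No test was run on the match of score and share.

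No member was called in day 7 against day 3 grafts by limma-voom, where 4.88% of all genes were called, 1.71% lower and 3.18% higher, and 1 of 47 had an unadjusted p under 0.05, against 3244 of 16051 genes tested. That member was Ndufa4l2, at -0.97 ± 0.29 (95% interval -1.59 to -0.35, limma adjusted p = 0.0681), with overlapping samples. It was called without control 4, day 3 graft 1 or day 7 graft 5 (limma adjusted p = 0.0136 to 0.0493, change -1.21 to -0.99). The 37 subunits had a median of -0.12 and the 8 assembly factors one of -0.07. For 32 of 37 subunits the estimate was below 0, as it was for 47.0% of all genes. On log2(TPM + 1) the median was 0.01 instead, and 20 of 37 were positive.

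The estimates at the ends of the subunits were -0.37 ± 0.24 for Ndufs7, -0.35 ± 0.21 for Ndufv3 and -0.31 ± 0.16 for Ndufb7, and 0.08 ± 0.14 for Ndufs8, 0.08 ± 0.17 for Ndufb2 and 0.03 ± 0.14 for Ndufb5. Ndufs7 had 11.8, 15.2, 13.2, 13.6 and 15.5 CPM in day 7 grafts against 14.5, 20.3, 19.4, 17.2 and 18.6 CPM in day 3 grafts. Ndufv3, an accessory subunit of the NADH site, had 38.5, 43.1, 43.2, 43.8 and 65.7 CPM in day 7 grafts against 44.9, 56.8, 69.5, 72.8 and 54.3 CPM in day 3 grafts. Both overlapped between the days, Ndufv3 only through day 7 graft 5.

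Ndufb7, of the membrane arm, had 25.5, 30.6, 32.2, 35.1 and 35.7 CPM in day 7 grafts against 33.0, 41.3, 42.5, 40.2 and 39.7 CPM in day 3 grafts, where only day 3 graft 1 fell within the day 7 range. At the other end Ndufs8 had 26.3, 32.2, 30.6, 30.2 and 27.5 CPM in day 7 grafts against 29.4, 25.6, 32.8, 28.5 and 23.5 CPM in day 3 grafts. Ndufb2 had 16.2, 14.5, 14.3, 12 and 17.9 CPM in day 7 grafts against 11.7, 15.7, 16.1, 13.6 and 13.9 CPM in day 3 grafts. For the last 2 genes the ranges lay on top of each other. Ndufb5 had 51.8, 51.1, 49.1, 43.9 and 52.8 CPM in day 7 grafts against 47.9, 49.6, 49.8, 49.2 and 46.9 CPM in day 3 grafts, which lay inside the day 7 range. Among the assembly factors with at least 10 CPM, Ndufaf1 was at one end with -0.14 ± 0.17 and Ndufaf4 at the other with 0.13 ± 0.17. Across the 46 genes other than Ndufa4l2 the 95% intervals reached from -0.91 to 0.50.

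Ndufa13, also known as Grim19, was the only member with no overlap between day 7 and day 3 grafts, where 3.32% of all genes were lower and 4.56% higher without overlap. It had 37.8, 45.7, 44.5, 45.6 and 44.9 CPM in day 7 grafts against 51.2, 52.0, 52.3, 53.9 and 52.8 CPM in day 3 grafts. Its change of -0.27 ± 0.16 was not called with the controls in the fit (limma adjusted p = 0.373), and was called when the controls were left out (-0.28, limma adjusted p = 0.0327). Sample quality weights gave 4 other calls among the members, all lower: Ndufa1 (-0.40), Ndufa7 (-0.37), Ndufv3 (-0.47) and Ndufa4l2 (-1.02), with limma adjusted p of 0.011 to 0.0365. With those weights 9.55% of all genes were called lower.

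All 10 adipocyte markers had estimates below 0 in day 7 against day 3 grafts (median log2 change -1.82). Of these, 5 were called lower, as were 1.71% of all genes. Cfd, the fat cell protein adipsin, was the lowest with -3.19 ± 0.31 (limma adjusted p = 0.000166). The subunit and assembly factor medians in the same comparison were -0.12 and -0.07, as given above. Whether the markers and the complex I genes differ in this was not tested.

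The subunits kept a rank order of abundance. On the TPM scale Ndufa1, a small membrane arm subunit encoded on the X chromosome, was the highest in each group, with 273 ± 8.62 TPM in day 7 grafts, 297 ± 24.4 TPM in day 3 grafts and 492 ± 86.0 TPM in controls (SD, n = 5 each). Ndufs7 was the lowest in grafts, at 40.4 ± 4.17 TPM in day 7 and 48.7 ± 5.98 TPM in day 3 grafts. In controls Ndufb2 was the lowest at 86.8 ± 9.03 TPM, with Ndufs7 at 92.8 ± 24.2 TPM within its spread. The median subunit had 112, 119 and 190 TPM in day 7 grafts, day 3 grafts and controls. Across the 37 genes, Spearman's rho of mean TPM was 0.86 for day 7 grafts with controls, 0.86 for day 3 grafts with controls and 0.99 for the grafts of both days. Those genes share libraries and are no independent replicates, so the rho values are descriptions.

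Among subunits, the longest transcripts had the deepest medians. The 6 subunits with effective transcript lengths over 1000 bases had a median log2 change of -1.62 at day 7 (range -1.88 to -1.08) and -1.60 at day 3 (range -1.89 to -0.81). Among them were Ndufs1, Ndufv1 and Ndufa10 towards the low end, and Ndufa9 (-1.38 at day 7 and -1.25 at day 3) and Ndufa13 (-1.08 and -0.81) at the high end. The 22 subunits under 500 bases had medians of -1.04 and -0.89, and the 9 between these of -1.09 and -1.04. Over the 37 subunits Spearman's rho of length with change was -0.45 at day 7 and -0.53 at day 3, against 0.05 and 0.01 over 16038 genes with a length. In those genes the medians in the same length classes stayed between -0.04 and 0.16. The class of 6 is small and overlaps with the core subunits, 3 of which are in it. The longest assembly factor, Ndufaf4 with 1950 bases, changed by -0.78 at day 7 and -0.91 at day 3.

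**Figure D4:**
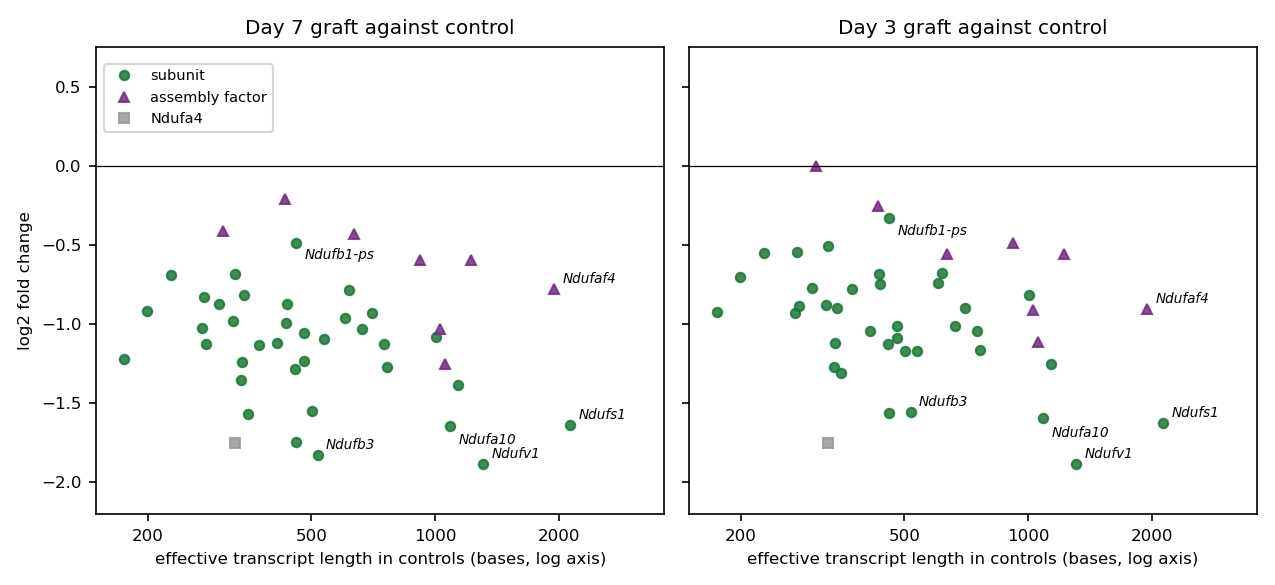
Effective transcript length in controls (horizontal log axis, bases) against log2 fold change (vertical axis) for 36 subunits (circles), 8 assembly factors (triangles) and Ndufa4 (square), with day 7 grafts on the left and day 3 grafts on the right. The labelled long subunits Ndufv1, Ndufs1 and Ndufa10 lie between -1.89 and -1.59, while Ndufa9 (-1.38 and -1.25) and Ndufa13 (-1.08 and -0.81), also over 1000 bases, lie higher, and Ndufaf4 with 1950 bases is at -0.78 and -0.91.

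Controls varied more than grafts. The median coefficient of variation of CPM over the 47 genes was 12.2% in day 7 grafts, 10.8% in day 3 grafts and 32.4% in controls, against 16.3%, 18.6% and 27.8% over all genes. Control 4 held the highest control value in 45 of 47 members, and control 3 the lowest in 33. On the TPM scale the figures for the members were 9.96%, 9.75% and 15.6%, and control 4 was the highest in 21 of 47. The 6 B cell markers ran the other way in controls 4 and 3 only. Their lowest control sum was in control 4 (146 CPM) and their highest in control 3 (1880 CPM). Controls 1, 2 and 5 fell in that order both in B cell sum and in summed CPM of the 47 genes. The part of the B cell markers in the spread of the controls was not tested. Leaving out each sample in turn gave 36 to 37 subunits called lower at day 7 and 34 to 37 at day 3.

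The rest of complex I and of the respiratory chain was low as well. All 7 subunits encoded by the mitochondrial genome were called lower at both days, with medians of -2.52 at day 7 and -2.17 at day 3. Each of the 7 was lower without overlap of samples, as were 19.8% of all genes at day 7 and 19.9% at day 3. The extremes were mt-Nd2 (-2.97 ± 0.24) and mt-Nd1 (-2.13 ± 0.22) at day 7, and mt-Nd4 (-2.63 ± 0.25) and mt-Nd3 (-1.85 ± 0.41) at day 3, all of them core subunits of the membrane arm. Nuclear copies of mitochondrial genes can share their reads, so these values are uncertain. Transcripts of the mitochondrial genome as a whole took 2.17 to 2.89% of counts in day 7 grafts, 2.35 to 4.02% in day 3 grafts and 9.01 to 14.9% in controls. With those genes left out of the counts, 37 nuclear subunits were called lower at day 7 and 36 at day 3.

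Of 9 measured assembly factors with names other than Ndufaf, 7 were called lower at day 7 (median -0.87), and 6 lower and 1 higher at day 3 (-0.96). Ecsit, the partner of Ndufaf1, was the lowest with -1.68 ± 0.16 at day 7 and -1.71 ± 0.17 at day 3. Dmac1, a factor for the distal membrane arm, averaged 21.0 ± 1.19 CPM in day 7 grafts, 29.1 ± 2.28 CPM in day 3 grafts and 21.1 ± 4.40 CPM in controls (SD, n = 5 each). It was higher at day 3 than in controls (0.47 ± 0.12, limma adjusted p = 0.00323), and lower at day 7 than at day 3 without overlap (-0.47 ± 0.11, limma adjusted p = 0.0314).

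Nuclear genes of the other complexes were low as well. Complex II had -1.19 at day 7 and -1.12 at day 3 (4 of 4 lower at both), with Sdha, its flavin subunit, at -2.10 ± 0.18 and -2.03 ± 0.18. Complex III had -1.68 and -1.39 (9 of 9 lower at both), and complex IV -1.10 and -0.96 (10 of 10 at both). For ATP synthase the medians were -0.88 and -0.80, with 12 of 15 lower and 1 higher at each day. The one higher was Atp5g1, a gene of the membrane ring, at 0.65 ± 0.09 and 0.60 ± 0.09, with 55.2 ± 1.87 CPM in day 7 grafts, 53.3 ± 3.10 CPM in day 3 grafts and 35.3 ± 4.01 CPM in controls. No test set complex I against the other complexes.

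**Figure D5:**
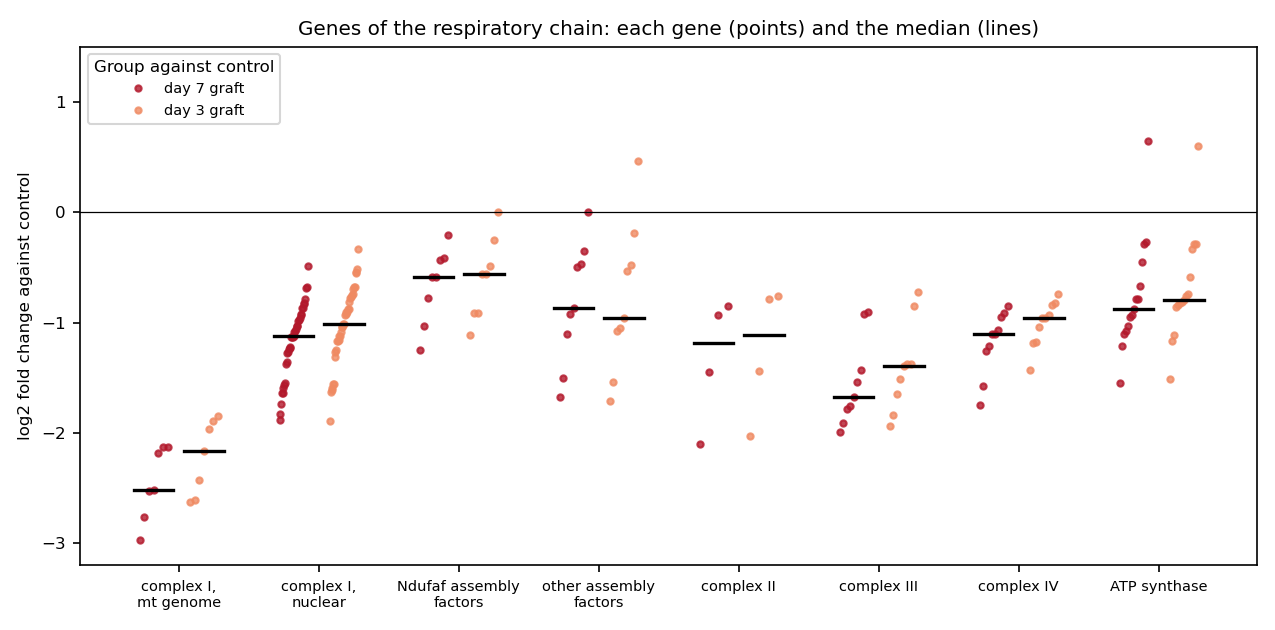
Log2 fold change against control (vertical axis) of each gene (points) in 8 groups of respiratory chain genes, with the median as a line, for day 7 grafts (dark red) and day 3 grafts (orange). Medians run from -2.52 and -2.17 for mitochondrially encoded complex I subunits to -0.59 and -0.56 for the Ndufaf genes.

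Regulators of mitochondrial biogenesis were mixed, with 6 of 9 called lower and 1 higher at both days (medians -0.83 at day 7 and -0.66 at day 3). Ppargc1a, a coactivator that drives biogenesis and is rich in brown fat, was the lowest at -5.34 ± 0.55 and -4.56 ± 0.49. Its relative Pprc1 was the highest at 0.54 ± 0.19 and 0.52 ± 0.19 (limma adjusted p = 0.0241 and 0.0289). Brown adipocyte markers, of which 5 of 6 were called lower at both days, summed to 3.73 to 7.54 CPM in day 7 grafts, 7.39 to 13.0 CPM in day 3 grafts and 174 to 741 CPM in controls. Their part in the complex I result was not tested.

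Some members share reads or span with other genes. Ndufs1 overlaps Eef1b2, Ndufaf2 overlaps Smim15, Ndufaf3 overlaps Impdh2, Ndufb1-ps overlaps Cpsf2 and Ndufb2 overlaps Braf, each on the opposite strand, so their values are uncertain by the share of reads that counting could misplace. Cpsf2 averaged 71.4 CPM in day 3 grafts and 51.9 CPM in controls, where Ndufb1-ps had 63 CPM. Braf averaged 52.2 CPM in day 3 grafts and 50.2 CPM in controls, where Ndufb2 had 26.8 CPM. Smim15 averaged 80.2 CPM in day 3 grafts and 44.2 CPM in controls, where Ndufaf2 had 9.99 CPM. Impdh2 averaged 81.3 and 72.9 CPM in the same order, beside 13.5 CPM of Ndufaf3 in controls. Eef1b2 averaged 510 and 341 CPM, beside 259 CPM of Ndufs1 in controls. Of the processed pseudogenes whose symbols start with Nduf, Ndufb4c held 7 to 182 counts per library and the other 4 at most 6. Among these copies, that of Ndufb4 thus held the most reads. Copies listed under other names were not looked for, so other members could share reads with a copy too. The 47 genes lie on 18 chromosomes, 2 of them on X.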

How the data were processed

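RNA from 15 adipose samples (5 fat grafts at day 7, 5 at day 3 and 5 controls) was read as 151 bp paired ends from a stranded mRNA library, as the labels say. Build mm10 and the tools RSEM 1.3.1, STAR 2.7.1a and cutadapt 2.8 are listed, without their roles, in the processing notes of the submitters. The annotation release and the strand setting of the counting are not given in the sources used here. Per the file headers, the deposited table lists 55471 genes, each with an estimated count, an RPKM value and a TPM value in every sample. The deposited counts are whole numbers written with digit separators. RPKM and TPM, as the authors deposited them, divide by transcript length and library size. RPKM served here only to recover effective transcript lengths, and TPM to compare genes with each other.

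For scaling, trimmed means of M-values were used (30% and 5% trims), and 16051 genes with at least 0.3894 CPM (10 counts at the median library) in at least 5 samples and 15 counts in all were kept. They were fitted with limma-voom (limma 3.58.1 in R 4.3.3) with 1 mean per group over all 15 samples, two-sided, and p-values were adjusted by Benjamini-Hochberg over all genes. CPM values use the scaled library sizes, and marker scores are means of log2(CPM + 1). The fit was also run on simulated data with the same spread in all groups, unlike these data, and nothing here rests on that run. Figures were drawn with matplotlib 3.10.9. No 2 samples held the same values. Intervals are 95% intervals of the fit.

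Members are all protein-coding genes whose symbols start with Nduf. Values in every sample are given for a panel of 9 genes, for the 3 subunits and 2 assembly factors at each end of a comparison (at least 10 CPM in 1 group), and for some members beside them. For 1 member, counted in all totals, no values of its own are reported here. The members and lists were chosen with earlier results of these data known. Alternatives comprised 11 planned settings, 15 omissions of 1 sample and 2 added after seeing the data.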

Additional observations from a re-analysis of the deposited data

Results flagged for a closer look

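In 8 of 138 sets of 5 samples (46 genes in 3 groups), 1 sample lay so far from its nearest neighbour that the gap exceeded 0.71 of the whole range, which is Dixon's limit for 5 values. Chance gives about 1 in 20 such sets, and genes of one library are not independent.

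All 3 sets of the controls pointed to control 4, which also had the highest adipocyte marker sum. It held 247 CPM of Ndufb3, a membrane arm subunit, where the next control held 125 CPM. It held 16.4 CPM of the assembly factor Ndufaf2, beside 9.47 CPM in the next control, and 2.91 CPM of Ndufa4l2, beside 1.86 CPM.

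In day 7 grafts, Ndufv3 stood high in graft 5 at 65.7 CPM, with 43.8 CPM next to it, and Ndufa13 stood low in graft 1 at 37.8 CPM, with 44.5 CPM next to it. In day 3 grafts, graft 3 stood high for Ndufa10 (62.3 CPM, next 56.5 CPM) and for Ndufb4 (37.2 CPM, next 30.1 CPM). Day 3 graft 1 stood low for Ndufa2 (29.3 CPM, next 42.6 CPM), and was the lowest of its group in 28 of 47 members. It had the highest skeletal muscle and macrophage scores of its group (4.85 and 9.54). Its adipocyte, endothelial and hypoxia scores (6.56, 5.75 and 6.14) were the lowest of the group. What sets these samples apart was not tested.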

How the results depend on the processing

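Counts of called subunits and assembly factors and their medians kept their direction and size under most of the 11 planned settings. The exceptions were on log2(TPM + 1), where the subunit medians were -0.72 at day 7 and -0.72 at day 3 against controls, the assembly factor medians -0.18 and -0.25, and 1 and 2 assembly factors were called lower. In day 7 against day 3 grafts, 0 subunits were called with limma-voom on all samples, 3 with sample quality weights, 1 with the 2 groups compared alone and 1 without control 4 and control 5 (added after seeing the data). In those 3 fits 9.55%, 4.27% and 4.71% of all genes were called lower. With 1 sample left out in turn, subunits called lower numbered 36 to 37 at day 7, 34 to 37 at day 3 and 0 between the grafts, and assembly factors 4 to 6 at day 7 and 5 to 6 at day 3. Subunit medians then ranged from -1.24 to -0.94 at day 7, from -1.10 to -0.83 at day 3 and from -0.20 to -0.07 between the grafts. Assembly factor medians ranged from -0.71 to -0.41, from -0.66 to -0.40 and from -0.11 to -0.03. Without control 2 and day 3 graft 1, which had the highest muscle sum of their groups, with controls 4 and 5 and day 7 graft 3 (318, 403 and 330 CPM) kept (added after seeing the data), 36 subunits were called lower at day 7 and 33 at day 3. Over single genes and settings, 3866 values stayed on their side of the threshold, 62 lost a call, 20 gained one and 0 changed sign while called. The cause of these shifts was not tested.

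Deviations of same-numbered samples correlated at -0.18 to 0.34. With so few samples these values cannot decide whether the replicate numbers of the labels pair the samples. With the replicate number as a block, 36 subunits were called lower at day 7 and 35 at day 3, and 5 assembly factors at each day. Depth limits Ndufaf8 most, with 28 to 72 counts per library.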

Other observations

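Lists of other cell types gave these values beside those of the adipocytes and macrophages. Fibroblast markers were called higher for 6 of 6 genes at day 7 and 5 of 6 at day 3, with medians of 2.7 and 2.45 on the log2 scale. Neutrophil markers were higher for 4 of 6 at each day (2.89 and 2.79), and endothelial markers for 4 of 6 at each day (1.14 and 0.98). All 6 B cell markers were lower at both days (-6.70 and -7.93). Over all genes, 32.2% were called higher at day 7 and 30.1% at day 3, and 28.4% and 30.3% lower. All 10 skeletal muscle markers had estimates below 0 at both days, with medians of -2.97 at day 7 and -4 at day 3. Of these 10, 1 was called lower at each day by limma-voom, and 3 at day 7 and 7 at day 3 had an unadjusted p under 0.05. Their part in the complex I results was not tested beyond leaving out control 2 and day 3 graft 1. The muscle and heart isoforms of complex IV had 2 of 3 called lower at each day (-2.45 and -1.55). The lowest of these 3 was Cox8b (-8.88 at day 7 and -7.54 at day 3), which is also counted among the brown adipocyte markers.

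Between the grafts, 9 of 9 hypoxia-responsive genes had estimates below 0 in day 7 against day 3 grafts, with a median of -1.02. None of them was called by limma-voom, and 6 had an unadjusted p under 0.05, as had 3244 of 16051 genes tested.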
